A study of Homo sapiens with 2 samples.

Results

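The miRNAs described here are the p53-induced miR-34 family with its relative miR-449a, and the miRNAs miR-192, miR-194 and miR-215. They were chosen by name, with earlier results of these data known. Of 8 mature names, miR-34a-5p, miR-34b-5p, miR-34b-3p, miR-34c-5p, miR-449a, miR-192-5p, miR-194-5p and miR-215-5p, 6 had a row among the 1213 entries of the deposited table, and miR-34b-5p and miR-34b-3p had none. The study sequenced small RNAs of UM-SCC6, an established cell line from a human oral squamous cell carcinoma, and of UM-SCC6-M. UM-SCC6-M was derived from UM-SCC6 by collecting the cells that had crossed a matrix in a microfluidic chip, over 3 rounds. The labels describe it as having some mesenchymal traits and high invasion ability. The other culture, UM-SCC6, is labelled as the parental line. Both come from the same line, and the labels name no drug or transgene. UM-SCC6-M is 1 selected derivative, and with 1 library from each culture the differences given here have no replicates behind them and were not tested between the conditions. In such bulk samples, fewer cells making a miRNA and less of it in each cell cannot be told apart.

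The transcription factor p53 answers DNA damage and other stress, and it acts in part through miRNAs. It binds near the genes of miR-34a and of the miR-34b and miR-34c cluster and raises their transcription. The guide strands then repress cell cycle and survival genes such as CDK6, MET and BCL2, and also SNAI1 and CD44, the hyaluronan receptor named in the series title. The miR-449 hairpins carry a related guide and are best known from multiciliated airway cells. miR-192 and miR-215 share a seed, are raised by p53 and favour cell cycle arrest, and miR-194 is made from the same transcripts. These last 3 miRNAs are most abundant in gut, liver and kidney.

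A miRNA finds its targets mainly through its seed, bases 2 to 8 from the 5′ end. The mature sequences are shown so that the members can be read by seed, which is in capitals in each line. They are RefSeq sequences of build GRCh38.p14, and miR-34c-5p is named only.
miR-34a-5p: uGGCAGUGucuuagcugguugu
miR-449a: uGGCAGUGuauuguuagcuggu
miR-449b-5p: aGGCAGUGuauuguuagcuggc
miR-34b-5p: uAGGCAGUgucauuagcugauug
miR-449c-5p: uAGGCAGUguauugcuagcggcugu
miR-2682-5p: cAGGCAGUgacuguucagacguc
miR-192-5p: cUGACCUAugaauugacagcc
miR-215-5p: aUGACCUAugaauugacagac
miR-194-5p: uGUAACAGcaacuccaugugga
miR-194-3p: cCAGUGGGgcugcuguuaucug
miR-34a-5p and miR-449a have the same seed and match at 15 of 22 positions, compared base by base without gaps. In miR-34b-5p and miR-449c-5p the same letters begin 1 base later, so that the seed reads AGGCAGU. miR-192-5p and miR-215-5p match at 19 of 21 positions and differ by C1A and C20A, counted from the 5′ end with the miR-192-5p base first. With so few differences, some reads of one could be assigned to the other, which was not tested.

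The hairpins lie at 5 places in the genome (GRCh38, with overlapping genes from GENCODE 29). The miR-34a hairpin (chr1:9151668-9151777, minus strand) overlaps an exon of its noncoding host MIR34AHG. The hairpins of miR-34b (chr11:111512938-111513021) and miR-34c (chr11:111513439-111513515), both on the plus strand, are 417 bases apart and overlap no other annotated gene. miR-449a (chr5:55170532-55170622, minus strand) lies in an intron of CDC20B with miR-449b and miR-449c. miR-192 (chr11:64891137-64891246) and miR-194-2 (chr11:64891355-64891439) are 108 bases apart on the minus strand in exons of MIR194-2HG. miR-215 (chr1:220117853-220117962) and miR-194-1 (chr1:220118157-220118241) are neighbours on the strand opposite to an intron of IARS2, a mitochondrial tRNA synthetase gene. miR-194-5p is the same 22 bases from both of its hairpins, so its reads do not tell the loci apart.

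Levels are normalized reads, which are read counts that the authors scaled by 1 factor per library. Dividing by that factor gave whole reads. Over the entries listed above 0, these summed to 7699264 in UM-SCC6-M and 8182713 in the parental library. These sums are called total reads below, and they leave out small RNA that has no entry. A value under 1 normalized read is listed as 0. For such entries reads were taken from the deposited log2 fold change, where only 1 pair of whole numbers gives it. Log2 ratios put UM-SCC6-M over parental UM-SCC6, with 0.5 reads added to each library. Brackets give exact 95% intervals for the counting of reads. They leave out the variation between cultures and library preparations, and PCR copies of a molecule count as separate reads.

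Of the miR-34 and miR-449 members, miR-34a-5p alone was listed above 0. It had 34.5 normalized reads in UM-SCC6-M and 53.8 in the parental library. The UM-SCC6-M value was the lower one, by 1.56-fold (1.34 to 1.82), on 289 reads against 405. The log2 ratio was -0.64 (-0.86 to -0.42). Per 1000000 total reads of the listed entries, miR-34a-5p had 37.5 (33.3 to 42.1) in UM-SCC6-M and 49.5 (44.8 to 54.6) in the parental library. It ranked 184th and 164th among the entries.

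The other miRNAs of this family were at the edge of detection. miR-34c-5p was listed at 0 in both libraries, and its deposited log2 fold change of -2.9617 corresponds to 1 read in UM-SCC6-M and 7 in the parental library. The log2 ratio was -2.48, with an interval from -8.46 to -0.0012. miR-449a was also listed at 0 in both, with 2 reads in UM-SCC6-M and 7 in the parental library, a ratio 3.34-fold lower (0.742 to 38.4). Both had fewer reads in UM-SCC6-M, and at these counts only the interval of miR-34c-5p ends short of equal levels. It spans them under each of the other scalings tried. Reads behind a listed 0 are known only where no other pair of small whole numbers has the same ratio, so such entries do not stand for all low ones. miR-449b-5p was listed at 0 in both libraries without a deposited fold change. A listed 0 leaves room for at most 8 reads in UM-SCC6-M and 7 in the parental library.

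The passenger arm and the cluster neighbours were compared with the guides. miR-34a-3p, the other arm of the miR-34a hairpin, was listed at 0 in both libraries. Its deposited log2 fold change of 1.4307 stands for 3 times as many reads in UM-SCC6-M, either 3 against 1 or 6 against 2. Its log2 ratio thus lay on the other side of 0 from that of miR-34a-5p, on too few reads to show a difference. miR-449c-5p, from a further hairpin of the same CDC20B intron, had 2.27 normalized reads in UM-SCC6-M and 8.77 in the parental library. It was 3.80-fold lower in UM-SCC6-M (2.29 to 6.82), on 19 reads against 66. The log2 ratio of miR-34a-5p exceeded that of miR-449c-5p by 1.28 (counting SE 0.39). miR-34c-3p, miR-449b-3p and miR-449c-3p had no row.

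Most reads with an AGGCAGU seed came from a miRNA that is not named with the family. A search of the RefSeq mature sequences for the seed of miR-34b-5p returned 3 names, of which miR-449c-5p and miR-2682-5p had a row. miR-2682-5p, which was chosen after its values were seen, comes from an exon of MIR137HG, the host transcript of miR-137 (chr1:98045242-98045351, minus strand). It had 326.6 normalized reads in UM-SCC6-M and 705.4 in the parental library. It was 2.16-fold lower in UM-SCC6-M (2.06 to 2.26), on 2735 reads against 5308. Of all entries with 50 normalized reads in the higher library, 12.8% were 2-fold or more lower. miR-137 of the same host went the other way, with 187.0 normalized reads in UM-SCC6-M and 148.4 in the parental library, a log2 ratio of 0.33. miR-2682-3p, the other arm of the miR-2682 hairpin, was lower too. It had 7.76 normalized reads in UM-SCC6-M and 22.2 in the parental library, a log2 ratio of -1.51. Neither miR-137 nor miR-2682-3p was on a planned list. miR-2682-5p had 9.46 times the reads of miR-34a-5p in UM-SCC6-M and 13.1 times in the parental library. Compared base by base from the 5′ end over 23 positions, miR-2682-5p matches miR-449c-5p at 12 and miR-34b-5p at 11. Counted in this way, miR-34b-5p matches miR-449c-5p at 11. No gaps were allowed, though miR-449c-5p is longer at 25 bases, so these counts can understate likeness and do not rank relatedness. The sum of the AGGCAGU seed was 2.17-fold lower in UM-SCC6-M (2.07 to 2.27). For the GGCAGUG seed, the sum of miR-34a-5p and miR-449a was 1.57-fold lower (1.35 to 1.84), on 291 reads against 412. miR-34c-5p, whose sequence was not among those searched, is left out of this sum. The sums of both seeds use the authors' scaling, and scaling to total reads moves every log2 ratio up by 0.24.

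**Figure D1:**
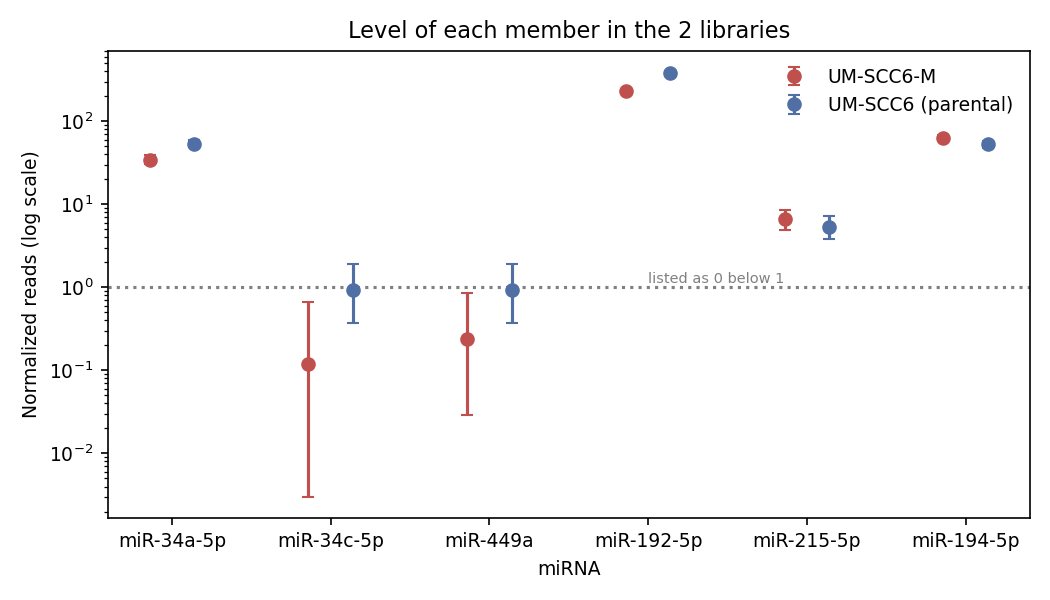
Normalized reads (log scale) of the 6 members with a row, in the UM-SCC6-M library (red) and the parental library (blue), each from 1 library. Bars are exact 95% Poisson intervals of the reads. miR-192-5p is highest in both at 232.7 and 376.7, and miR-34c-5p and miR-449a lie under the dotted line below which the table lists 0.

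Within the second group miR-192-5p was the most abundant member in both libraries. It had 232.7 normalized reads in UM-SCC6-M and 376.7 in the parental library. It was 1.62-fold lower in UM-SCC6-M (1.53 to 1.72), on 1949 reads against 2835, with a log2 ratio of -0.69 (-0.78 to -0.61). In the authors' deposited table it had a q-value of 0.00094617, which compares the 2 libraries and not the 2 conditions. That table did not mark it as selected. In the authors' deposited table the q-value was 0.749 for miR-34a-5p and 0.30229 for miR-194-5p. The 44 marked entries all had a deposited log2 fold change of at least 1.0097 in size.

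miR-194-5p, which lies beside miR-192 on chromosome 11 and beside miR-215 on chromosome 1, had 62.8 normalized reads in UM-SCC6-M and 52.5 in the parental library. It was 1.20-fold higher in UM-SCC6-M (1.05 to 1.37), on 526 reads against 395, with a log2 ratio of 0.26 (0.07 to 0.45). miR-215-5p had 6.57 normalized reads in UM-SCC6-M and 5.32 in the parental library. Its ratio was 1.23-fold (0.807 to 1.91), on 55 reads against 40, an interval that spans equal levels. miR-194-3p is named for the chromosome 11 hairpin. It had 1.43 normalized reads in UM-SCC6-M and was listed at 0 in the parental library. Those values are 12 reads against 3, and the interval of the ratio ran from 0.970 to 19.8. miR-192-3p and miR-215-3p were listed at 0 in both libraries without a deposited fold change.

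The chromosome 11 neighbours miR-192-5p and miR-194-5p stood in different proportions in the libraries. There were 3.71 reads of miR-192-5p for each read of miR-194-5p in UM-SCC6-M and 7.18 in the parental library. The log2 ratio of miR-192-5p minus that of miR-194-5p was -0.95 (counting SE 0.10), a difference that no scaling of the libraries can change. Between miR-215-5p and miR-194-5p the difference was 0.04 (counting SE 0.31, interval -0.57 to 0.66). miR-215-5p had 10.5% of the reads of miR-194-5p in UM-SCC6-M and 10.1% in the parental library. The seed partners miR-192-5p and miR-215-5p differed by -0.995 (counting SE 0.30), with miR-215-5p at 2.82% of the miR-192-5p reads in UM-SCC6-M and 1.41% in the parental library. How many miR-194-5p reads came from each chromosome was not tested. Summed over the seed UGACCUA, miR-192-5p and miR-215-5p were 1.60-fold lower in UM-SCC6-M (1.51 to 1.69) under the authors' scaling. Unlike the differences above, this fold depends on the scaling.

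**Figure D2:**
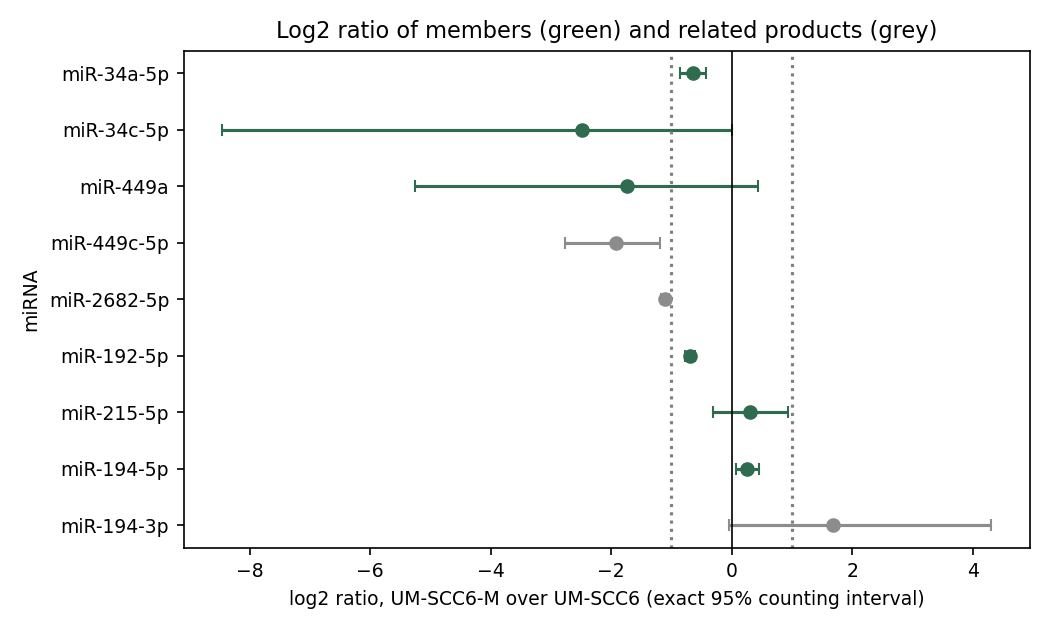
Log2 ratio of UM-SCC6-M over parental for the 6 members with a row (green) and 3 related products (grey), with exact 95% counting intervals. Dotted lines mark 2-fold. miR-34a-5p and miR-192-5p lie at -0.64 and -0.69, miR-194-5p at 0.26, and the wide bars are those of miRNAs with few reads.

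The members from different loci can be set side by side. The log2 ratio of miR-34a-5p minus that of miR-192-5p was 0.05 (counting SE 0.12, interval -0.18 to 0.29), and miR-34a-5p had 14.8% of the miR-192-5p reads in UM-SCC6-M and 14.3% in the parental library. Against miR-194-5p, miR-34a-5p differed by -0.90 (counting SE 0.15). In the UM-SCC6-M library the order of reads was miR-192-5p, miR-194-5p, miR-34a-5p, miR-215-5p, miR-449a and miR-34c-5p, and only the last pair overlapped in their counting intervals. In the parental library miR-34a-5p came after miR-192-5p, with 405 reads followed by miR-194-5p with 395, and these intervals overlapped. miR-34c-5p and miR-449a tied there with 7 reads each.

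Together the 6 members were a small part of the total reads of the listed entries. Their sum was 2822 reads in UM-SCC6-M, 0.0367% of that total, and 3689 reads in the parental library, 0.0451%. Under the authors' scaling the sum was 1.45-fold lower in UM-SCC6-M (1.38 to 1.53), a log2 ratio of -0.54. Scaling to total reads moves every log2 ratio up by 0.24, so the 2 shares of total reads lie closer together than this fold. miR-192-5p held 69.1% of the sum in UM-SCC6-M (67.3 to 70.8) and 76.9% in the parental library (75.5 to 78.2). miR-194-5p held 18.6% (17.2 to 20.1) in UM-SCC6-M and 10.7% (9.73 to 11.8) in the parental library. The part of miR-34a-5p was 10.2% (9.15 to 11.4) in UM-SCC6-M and 10.98% (9.99 to 12.0) in the parental library, within counting error.

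The size of these ratios was then read against all entries. Of the 179 entries that reached 50 normalized reads in 1 or both libraries, 20.1% were 2-fold or more apart, 7.26% higher and 12.8% lower in UM-SCC6-M. Of the members, 3 reached that floor, miR-34a-5p, miR-192-5p and miR-194-5p, and 0 were 2-fold apart. A floor of 10 normalized reads kept the same 3 members, again with 0 apart, where 22.8% of entries were. At 1.5-fold, 43.6% of the 179 entries were apart, 25.7% lower in UM-SCC6-M, and so were miR-34a-5p and miR-192-5p, both lower. Scaled to total reads, these were 1.32-fold and 1.37-fold lower and no longer reached 1.5-fold. Without a floor, over entries with known reads, 34% were 2-fold apart and 22.7% lower, and miR-34c-5p and miR-449a joined these through their few reads. Among the 179 entries, 36 had a lower ratio than miR-192-5p, 41 a lower ratio than miR-34a-5p and 116 a lower ratio than miR-194-5p. The median log2 ratio of the 179 was 0.04. Scaling to total reads in place of the authors' scaling moves every log2 ratio up by 0.24. It leaves miR-34a-5p at -0.40 and miR-192-5p at -0.45 and brings miR-194-5p to 0.50.

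**Figure D3:**
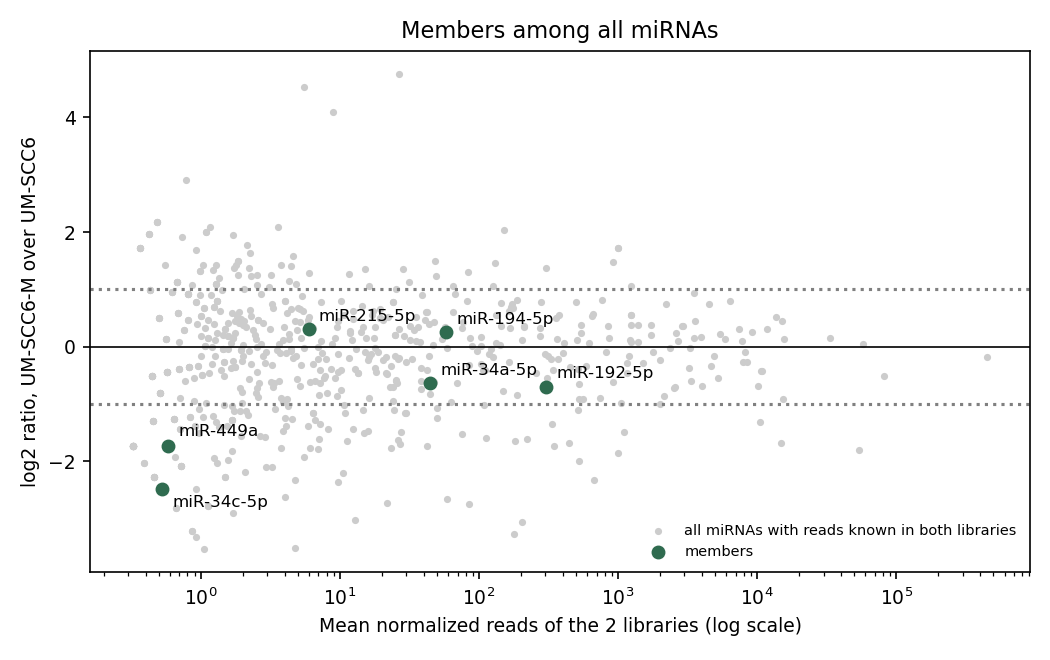
Log2 ratio of UM-SCC6-M over parental against the mean normalized reads of both libraries (log scale), for entries whose reads were known in both (grey) and the 6 members with a row (green). Dotted lines mark 2-fold. The 3 members above 10 normalized reads lie inside these lines, at -0.69 for miR-192-5p, -0.64 for miR-34a-5p and 0.26 for miR-194-5p.

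Other miRNAs reported to be raised or matured under p53 went both ways. Of 20 names, 17 had a row and 8 reached 50 normalized reads, of which 0 were 2-fold higher and 1 was 2-fold lower. Their median log2 ratio was 0.12. The lower one was miR-100-5p, which is reported to repress MTOR, with 7107 normalized reads in UM-SCC6-M and 22784 in the parental library, 3.21-fold lower (3.18 to 3.24). miR-200b-3p, a repressor of ZEB1 and ZEB2, had 17481 normalized reads in UM-SCC6-M and 12823 in the parental library, a log2 ratio of 0.45. miR-200a-3p of the same family went the other way, with 1344 normalized reads in UM-SCC6-M and 2674 in the parental library, 1.99-fold lower (1.94 to 2.04). miR-182-5p stood at 0.09 and miR-23a-3p at 0.74. miR-141-3p, miR-205-5p and miR-605-5p had no row.

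Besides transcription, p53 aids the cutting of the precursors of miR-16-1, miR-143 and miR-145. miR-16-5p, which 2 loci make, had 957.4 normalized reads in UM-SCC6-M and 745.1 in the parental library, a log2 ratio of 0.36 (0.31 to 0.41). miR-16-1-3p, made by 1 of these loci, had 26 reads in UM-SCC6-M and 82 in the parental library, 3.46-fold lower (2.23 to 5.69). miR-143-3p had 34 reads in UM-SCC6-M and 78 in the parental library, 2.53-fold lower (1.69 to 3.94), and miR-145-5p had 1 against 4, with an interval of the log2 ratio from -7.78 to 1.18 that spans equal levels. miR-16-1-3p and miR-143-3p were thus lower in UM-SCC6-M, while the abundant miR-16-5p was higher. miR-15a-5p, of the list above, had 122 reads in UM-SCC6-M and 129 in the parental library. Its log2 ratio was -0.23 (-0.60 to 0.13), an interval that spans equal levels. miR-16-2-3p, named for the other locus, had 239.1 normalized reads in UM-SCC6-M and 185.2 in the parental library. Its log2 ratio was 0.37, and it was chosen after its values were seen. Without the floor 5 of 15 of this list were 2-fold apart, against 34% of all entries. Next to those named here stood miR-203a-3p, the higher one, with 23 reads in UM-SCC6-M and 7 in the parental library.

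**Figure D4:**
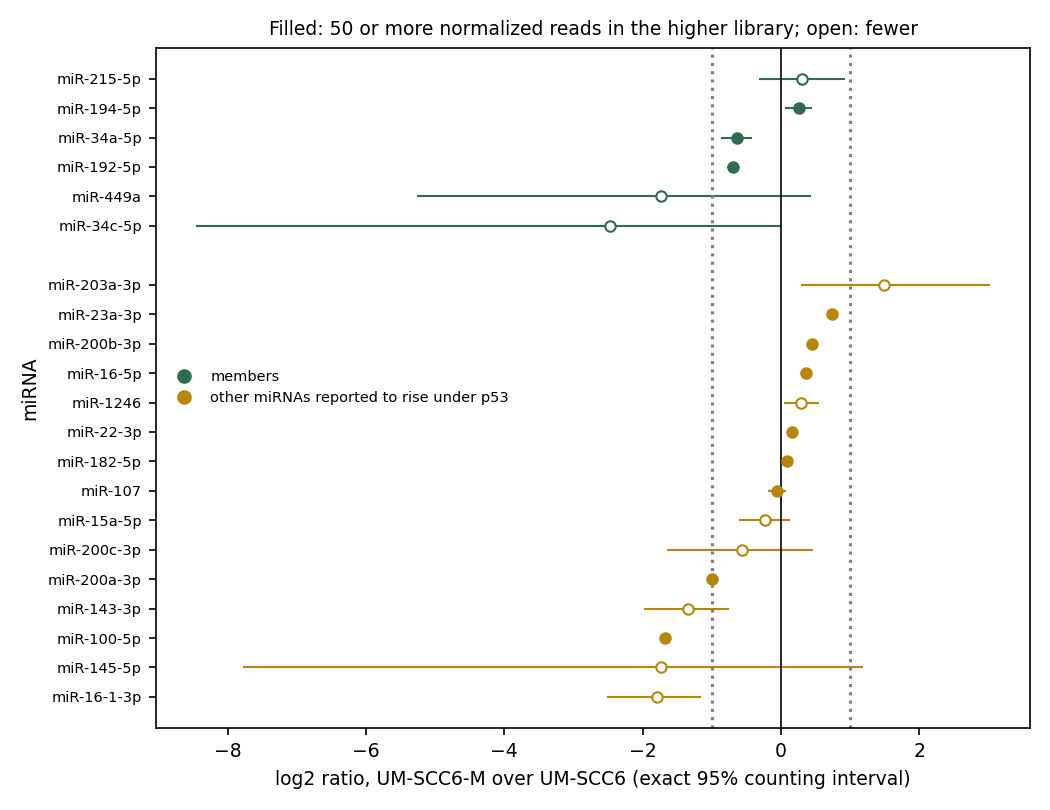
Log2 ratio of UM-SCC6-M over parental for the members and for other miRNAs reported to rise under p53, for all of each list whose reads were known in both libraries. Bars are exact 95% counting intervals and dotted lines mark 2-fold. Filled points lie between -1.68 (miR-100-5p) and 0.74 (miR-23a-3p), and the points beyond 2-fold are open except for miR-100-5p.

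Markers of the cells in which these miRNAs are usually abundant, and of other cells, were then read, 18 names in 6 lists. Of the miRNAs listed for gut and liver, miR-148a-3p had 5972 normalized reads in UM-SCC6-M and 14904 in the parental library. Its level alone does not show gut or liver cells. miR-122-5p, which hepatocytes make, had 2 reads in UM-SCC6-M and 15 in the parental library. The entry miR-3591-3p had the same values as miR-122-5p, and miR-203b-5p the same as miR-203a-3p. The same reads may thus be credited to 2 entries, which was not tested. Of the 4 miRNAs of ciliated airway cells, miR-449a, miR-449b-5p and miR-34c-5p were listed at 0 and miR-34b-5p had no row. All of these but miR-449b-5p are members, so this list repeats the values above and is no separate reading of cell type. miR-449c-5p of the same CDC20B intron was not on it, and had 19 reads in UM-SCC6-M and 66 in the parental library. Of the squamous markers, miR-205-5p had no row, miR-944 was listed at 0 in both libraries and miR-203a-3p had the few reads given above, and a missing row does not show that a miRNA is absent. These 3 miRNAs alone do not settle the squamous label. miR-31-5p, another miRNA of squamous cells, had 93.9 normalized reads in UM-SCC6-M and 98.5 in the parental library. It was chosen after its values were seen, so it does not settle that label either. Of the carcinoma markers, miR-21-5p was the most abundant entry in both libraries. In contrast, miR-200c-3p had 15 reads in UM-SCC6-M and 20 in the parental library, and miR-141-3p had no row. The blood marker miR-142-3p was listed at 0 in both, miR-451a had 1 read against 6, and miR-223-3p had no row. The 3 stromal markers went both ways. miR-199a-3p had 183 reads in UM-SCC6-M and 79 in the parental library, a ratio 2.07-fold higher (1.59 to 2.75), whereas miR-143-3p and miR-145-5p had the lower counts in UM-SCC6-M given above. The summed level of the 3 stromal markers was 25.9 normalized reads in UM-SCC6-M and 20.9 in the parental library, of which miR-199a-3p made 21.9 and 10.5. Entries related to miR-199a-3p but outside the list also went both ways. miR-199a-5p was listed at 0 in UM-SCC6-M and at 1.73 in the parental library, and miR-199b-5p at 87.2 and 42.0. The part of other cells in the members' ratios was not tested.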

How the data were processed

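The submitters' processing notes name Bowtie as a tool. Its version, the genome build, the miRNA database and the counting are not given in the sources used here. Libraries were made with a ligation kit from 3 µg of total RNA, per the labels' protocols. The deposited table gives a read signal scaled by the authors, and a log2 fold change, p-value and q-value of their own comparison, per the file headers. In both columns, values above 0 were whole multiples of 1 step (0.119 for UM-SCC6-M and 0.133 for UM-SCC6), within 7.73e-05 reads, which gave the reads. No listed value stood for fewer than 9 reads in UM-SCC6-M or 8 in UM-SCC6. A listed 0 was resolved where 1 pair of whole numbers matched the deposited fold change within 0.001 (log2). That held for 100 of the 299 entries listed at 0 in both libraries with a fold change.

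Intervals are Clopper-Pearson for ratios and shares and exact Poisson for reads. Differences of 2 ratios have a counting standard error. An entry was called at 2-fold or more with 50 normalized reads in the higher library. All members were named, with the products of their clusters and a list of other miRNAs reported to rise under p53. Values in that list are given for the 4 most abundant and those 2-fold apart. miR-200a-3p, miR-15a-5p and members with a role in p53-aided processing were added. A further list that was planned is not reported here. Members and lists were chosen with earlier results of these data known. The steps were tested on simulated data. Computation used Python 3.11.15, numpy 2.4.6, pandas 2.3.3, scipy 1.17.1 and matplotlib 3.10.9.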

Additional observations from a re-analysis of the deposited data

How the results depend on the processing

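With 1 library per culture no replicate could be left out. No paired analysis was possible because each culture has 1 library. Scaled to total reads, the log2 ratio was -0.40 for miR-34a-5p, -0.45 for miR-192-5p and 0.50 for miR-194-5p, each outside its counting interval under the authors' scaling. The same upward shift of 0.24 applies to miR-2682-5p and to the summed members and seeds, whose folds are given under the authors' scaling. With totals that leave out the 10 most abundant entries, miR-192-5p was at -0.59. No member changed sign under the 3 scalings, with 5 reads added before the log, or in the deposited fold changes. The count of members 2-fold apart was 0 under each scaling and at a floor of 10 normalized reads. It was 2 without a floor (miR-34c-5p and miR-449a, on 1 and 2 UM-SCC6-M reads), where 34% of all entries were apart. At a 1.5-fold threshold it was also 2 (miR-34a-5p and miR-192-5p), where 43.6% of entries were apart. Combining that threshold with the other scalings was chosen after seeing the data. The count was then 0 with both libraries scaled to total reads, 1 (miR-192-5p at 1.51-fold, with miR-34a-5p at 1.45-fold) without the 10 most abundant entries, and 2 with the median of ratios. The shares of the summed members cannot change with the unit, since each library has 1 scaling factor. Read number limits miR-215-5p, miR-34c-5p, miR-449a and miR-194-3p.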
